A study of Mus musculus with 6 samples.

Results

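The genes described here encode the protein lattice under the red cell membrane, its anchors, and blood group proteins that sit with it. There were 10 of them: Epb42, Sptb, Ank1, Slc4a1, Rhag, Rhd, Kel, Add2, Ermap and Icam4. They were followed through every Affymetrix probe set whose single listed gene symbol was exactly a member's, which gave 21 of the 45101 probe sets on the array. Ank1 had 4 of these, Add2 5, Slc4a1 3, Epb42 and Sptb 2 each, and the other genes 1 each. The cells were sorted from the bone marrow of 6-week-old mice as positive for cKit and negative for Sca1 and lineage markers. Both groups carried Mx1-cre, a recombinase that interferon switches on in blood-forming and other cells, and both were given polyIC, which induces interferon, in 3 injections of 20 mcg per g of body weight, with cells taken 1 week after the last. The ICN2-positive group (genotype Rosa-lsl-ICN2 Mx1-cre+, 3 arrays) also carried ICN2 at the Rosa locus behind a stop cassette that the recombinase removes. ICN2 is the intracellular, constantly active part of Notch2. The ICN2-negative group (genotype Mx1-cre+, 3 arrays) consisted of littermates without that transgene. The ICN2-negative mice were labelled female and the ICN2-positive mice male, and for every difference given here the effects of genotype and of sex cannot be told apart. The labels do not say that the arrays of a group came from separate animals, and the p-values then reflect no more than the scatter among these samples, part or all of which may be technical.

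The red cell membrane is held by a mesh of long spectrin tetramers tied together at junctions of short actin filaments. Beta-spectrin (Sptb) binds ankyrin (Ank1), which in turn holds the anion exchanger band 3 (Slc4a1) in the bilayer. Protein 4.2 (Epb42) strengthens the bond of band 3 to ankyrin. The Rh proteins (Rhag, Rhd) and the adhesion molecule Icam4, which carries the LW blood group, travel with this ankyrin complex, while adducin (Add2) caps the actin filaments at the junctions. Kel is the Kell blood group endopeptidase, and Ermap is an erythroid membrane protein of the butyrophilin family that carries the Scianna blood group. These genes are switched on as erythroid progenitors mature, and inherited defects in several of them cause spherocytosis.

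The arrays read the sorted population as erythroid in part. The erythroid factor genes Gata1 and Klf1 had mean log2 intensities of 12.12 and 12.64 in ICN2-negative cells and 12.20 and 12.81 in ICN2-positive cells, and Kit had 10.45 and 10.57. Itgam and Ms4a1, genes of myeloid and B cell lineage markers, lay below the 40th percentile of their array on all 6 arrays. Ms4a1 does not stand for all B cell genes. Of 12 B cell marker genes with a probe set, 8 passed the filter used below. Their summed linear intensity was 3811 to 14961 in ICN2-negative and 948 to 2647 in ICN2-positive arrays. Cd3e, of the T cell receptor complex, had means of 5.60 and 6.95 and was not called. Ly6a, which encodes Sca1, was not analysed here. The female-specific transcript Xist and the Y-linked gene Eif2s3y went with the labelled sexes, at 11.47 and 3.58 in ICN2-negative cells against 3.57 and 11.36 in ICN2-positive cells. ICN2-positive replicate 1 stood apart from the rest: over all probe sets that are no array control it correlated at 0.984 and 0.987 with the other ICN2-positive arrays, which correlated at 0.995 with each other. Its difference between 3' and 5' beta-actin probe sets was 1.01 (log2), against 0.71 to 0.85 on the other 5 arrays. Every comparison was therefore also fitted without it.

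A promoter stretch is shown for some of these genes because the members are textbook targets of shared erythroid factors yet differed in how they behaved on these arrays. RefSeq windows on GRCm38.p6 were found for 8 of the 10 genes, and the 250 bases before the annotated start were searched on both strands. The motifs for GATA factors were AGATAA and, as a variant with another first base, TGATAA. The motif for KLF factors was CCNCNCCC, where N is any base. Matches are in capitals below, and neighbouring matches can overlap. At the brightest probe set, the first 3 genes had ICN2-positive values below all ICN2-negative values, and for the last 2 the groups overlapped.
Epb42, chr2:121036878-121037127, minus strand: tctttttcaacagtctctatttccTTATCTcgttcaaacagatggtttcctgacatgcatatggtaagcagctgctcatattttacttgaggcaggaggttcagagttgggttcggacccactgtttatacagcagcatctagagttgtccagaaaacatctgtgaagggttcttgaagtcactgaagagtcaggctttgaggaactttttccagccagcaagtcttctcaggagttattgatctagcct
Sptb, chr12:76710548-76710797, minus strand: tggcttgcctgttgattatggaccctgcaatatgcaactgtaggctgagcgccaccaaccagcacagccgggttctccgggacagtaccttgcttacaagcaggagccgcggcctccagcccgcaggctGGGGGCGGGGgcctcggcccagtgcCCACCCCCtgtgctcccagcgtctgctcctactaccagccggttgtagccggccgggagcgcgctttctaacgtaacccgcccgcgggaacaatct
Rhd, chr4:134864286-134864535, plus strand: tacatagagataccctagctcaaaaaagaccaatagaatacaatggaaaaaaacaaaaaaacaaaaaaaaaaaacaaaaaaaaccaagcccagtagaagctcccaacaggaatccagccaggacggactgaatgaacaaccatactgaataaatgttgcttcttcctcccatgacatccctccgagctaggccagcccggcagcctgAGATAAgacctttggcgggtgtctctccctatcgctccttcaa
Kel, chr6:41704326-41704575, minus strand: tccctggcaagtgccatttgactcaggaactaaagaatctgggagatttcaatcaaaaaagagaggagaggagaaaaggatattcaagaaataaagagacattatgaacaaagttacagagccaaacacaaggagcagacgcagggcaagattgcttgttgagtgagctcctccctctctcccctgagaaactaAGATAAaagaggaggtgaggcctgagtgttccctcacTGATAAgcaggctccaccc
Icam4, chr9:21029182-21029431, plus strand: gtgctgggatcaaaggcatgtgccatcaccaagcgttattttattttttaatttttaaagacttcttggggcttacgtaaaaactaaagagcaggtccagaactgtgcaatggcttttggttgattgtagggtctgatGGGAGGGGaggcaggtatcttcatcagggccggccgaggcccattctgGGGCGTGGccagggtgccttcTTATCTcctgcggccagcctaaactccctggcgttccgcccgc
A GATA motif was present in 6 of the 8 windows (Epb42, Rhd, Rhag, Kel, Ermap and Icam4), against 17.0% of 27025 windows of the same length, 1 per gene. The KLF motif was in 3 of the 8 (Sptb, Add2 and Icam4), against 45.6% of all windows. In Rhd the match to AGATAA ran from 43 to 38 bases before the start, and in Icam4 it covered the same bases on the other strand. In Kel it ran from 56 to 51, with a second GATA match from 19 to 14. In Epb42 it lay farther out, from 226 to 221, on the other strand. The RBPJ motif TGGGAA, bound by the DNA-binding partner of Notch, was in 1 of the 8 windows (Ermap) and in 21.5% of all. GATA motifs were found both in genes with separated groups at the brightest probe set (Epb42, Rhd) and in genes with overlapping groups (Kel, Icam4, Rhag, Ermap). These matches describe the letters in the windows, and binding was not measured.

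**Figure D1:**
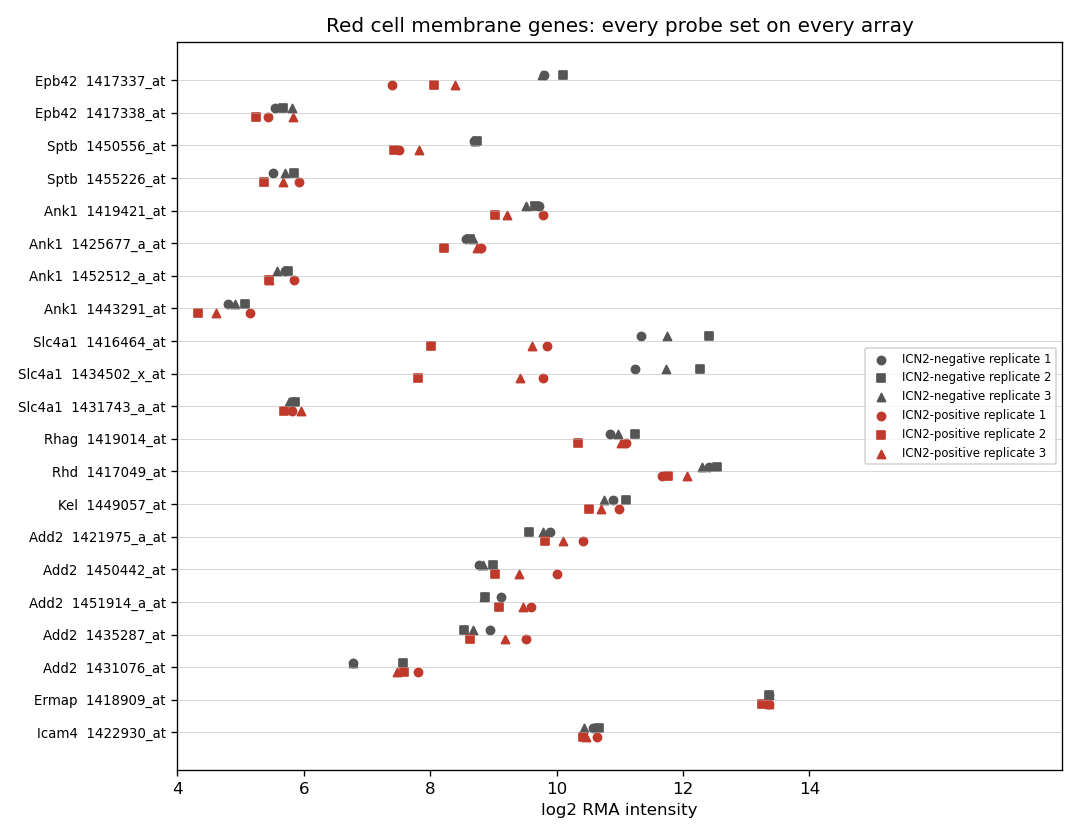
Log2 RMA intensity (x axis) of every probe set of the 10 genes (y axis) on the 3 ICN2-negative arrays (grey) and the 3 ICN2-positive arrays (red), with the marker shape giving the replicate. The groups lie apart for the first Epb42 and Sptb probe sets, 2 Slc4a1 probe sets and Rhd, all lower in ICN2-positive cells, and by a gap of only 0.021 for Add2 1450442_at; levels of different probe sets are not comparable with each other.

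The comparison of the genotypes asked what active Notch2 changes in progenitors of myeloid and erythroid cells. Among the red cell membrane genes, protein 4.2 and beta-spectrin fell in ICN2-positive cells, by 3.84-fold and 2.18-fold. Band 3 had a larger difference of 6.39-fold that missed the threshold, with wide spread between arrays. The other genes of the set did not pass, and beta-adducin had higher means in ICN2-positive cells at all 5 of its probe sets. Of the 20 member probe sets that passed the filter on dim probe sets, 2 were called lower and 0 higher (limma, adjusted p under 0.05 over 27424 probe sets). Of all tested probe sets, 0.988% were called lower and 1.67% higher, 2.65% in all. An unadjusted p under 0.05 in limma was found for 6 member probe sets. These included both bright Slc4a1 probe sets and also Add2 1451914_a_at, which had a higher mean. The share of all tested probe sets at that unadjusted limit was not counted. Means were lower in ICN2-positive cells for 14 of the 20 member probe sets, against 44.4% of all tested. The filter asked for a value above the 40th percentile of the array on at least 3 of 6 arrays, and 19 member probe sets were above it on all 6 and 1 on 5. The median difference over the 20 was -0.08 (log2), against 0.03 over all tested probe sets. Because these are sorted cells in bulk, fewer cells of a type and less RNA per cell cannot be told apart.

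Protein 4.2 is a transglutaminase-like protein without enzyme activity. Its brighter probe set, 1417337_at, read 9.80, 10.10 and 9.76 (log2 intensity) in ICN2-negative replicates 1 to 3 and 7.40, 8.06 and 8.39 in ICN2-positive replicates 1 to 3. Every ICN2-positive array lay below every ICN2-negative array, by a gap of 1.38. The fall was 1.94 on the log2 scale, a difference of -1.94 ± 0.26 (SE, n = 3 per group; adjusted p = 0.0292 in limma). Without ICN2-positive replicate 1, which held the lowest value, the difference was -1.67 and the adjusted p 0.0182. The call was lost on leaving out any other array, at adjusted p = 0.0759, 0.123 and 0.115 without ICN2-negative replicates 1, 2 and 3 and 0.0731 and 0.0575 without ICN2-positive replicates 2 and 3.

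Beta-spectrin forms the lattice strand that carries the ankyrin-binding site. Probe set 1450556_at read 8.69, 8.74 and 8.71 in ICN2-negative replicates 1 to 3, a spread of 0.022 (SD), and 7.51, 7.43 and 7.82 in ICN2-positive replicates 1 to 3. The groups were apart by 0.87. The difference was -1.13 ± 0.12 (SE, n = 3 per group; adjusted p = 0.0149 in limma). The call held without any single ICN2-positive array (adjusted p = 0.0301, 0.0409 and 0.0212 without replicates 1, 2 and 3) and not without ICN2-negative replicates 1, 2 or 3 (adjusted p = 0.0544, 0.0894 and 0.0837). Averaged with its dimmer probe set, the gene differed by -0.58 and was not called (adjusted p = 0.0539).

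Band 3 exchanges chloride for bicarbonate and is the membrane anchor of ankyrin. Probe set 1416464_at read 11.34, 12.42 and 11.75 in ICN2-negative replicates 1 to 3 and 9.85, 8.01 and 9.62 in ICN2-positive replicates 1 to 3. The groups were apart by 1.49, the widest gap of any member probe set. The difference was -2.67 ± 0.55 (SE), with a 95% interval of -4.03 to -1.32, and the adjusted p was 0.0722. Of all tested probe sets 0.368% had a larger fall, and 97.5% had a smaller spread within groups. Probe set 1434502_x_at, whose suffix marks probes that may also match other transcripts, followed it closely at -2.74 ± 0.57 (adjusted p = 0.0727). Both probe sets missed the threshold in all 6 fits that left out 1 array (adjusted p = 0.0654 to 0.218 for 1416464_at), and passed with array weights (adjusted p = 0.0241 for 1416464_at) and with a variance that follows intensity (adjusted p = 0.0417 for 1416464_at). ICN2-positive replicate 2 was the low array here, whereas replicate 1 was lowest for Epb42.

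Ankyrin joins band 3 to beta-spectrin, and it did not pass the test. Its brightest probe set, 1419421_at, read 9.72, 9.65 and 9.52 in ICN2-negative replicates 1 to 3 and 9.79, 9.03 and 9.21 in ICN2-positive replicates 1 to 3. ICN2-positive replicate 1 was the highest of the 6 arrays and the groups overlapped. The difference was -0.28, with a 95% interval of -0.79 to 0.22. Without ICN2-positive replicate 1 it was -0.51 (adjusted p = 0.0781), and without ICN2-positive replicate 2 -0.13, neither called. The other tested probe sets of Ank1 differed by -0.03 and -0.10, and 1443291_at, below the 40th percentile on all 6 arrays, was not tested.

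**Figure D2:**
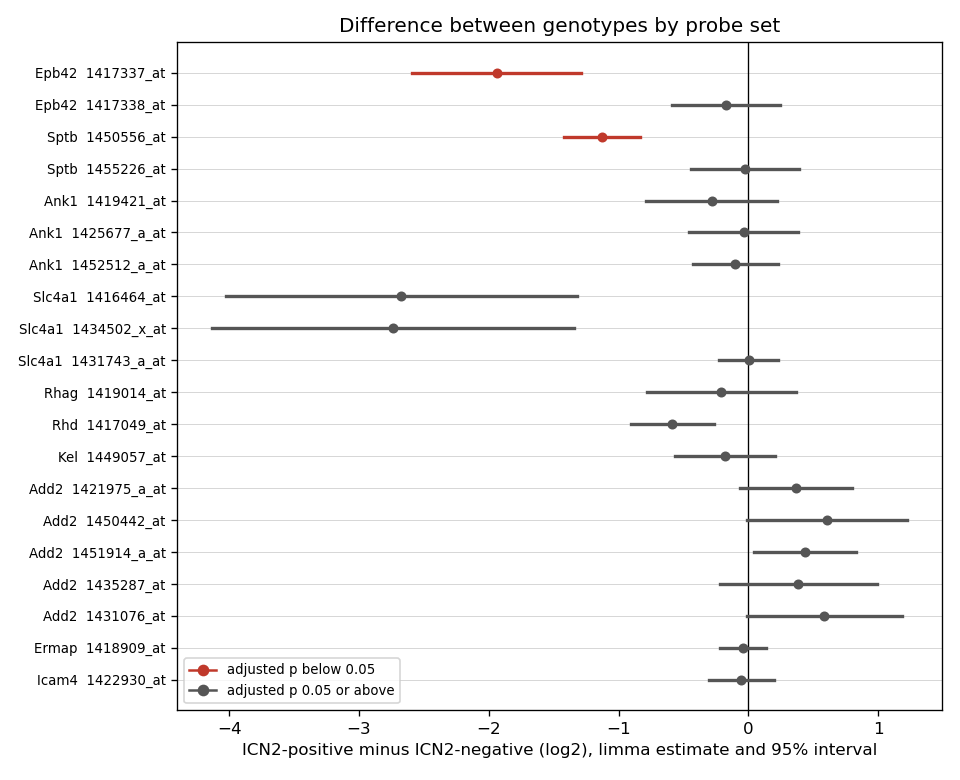
Difference between the genotypes (ICN2-positive minus ICN2-negative, log2, x axis) with its 95% limma interval for the 20 tested probe sets (y axis); red marks an adjusted p below 0.05. Epb42 1417337_at at -1.94 and Sptb 1450556_at at -1.13 are called, the 2 Slc4a1 probe sets near -2.7 have intervals from about -4 to -1.3 and are not, and the Ermap and Icam4 intervals stay within -0.31 and 0.20.

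Of the Rh and LW proteins, only Rhd had groups that did not overlap. Rhd, the Rh blood group polypeptide, read 12.41, 12.54 and 12.31 in ICN2-negative replicates 1 to 3 and 11.67, 11.77 and 12.06 in ICN2-positive replicates 1 to 3. Its difference of -0.59 ± 0.13 (SE, n = 3 per group) had an adjusted p of 0.0794 in limma, and 0.0405 with a variance that follows intensity. Its partner Rhag, the Rh-associated glycoprotein that the complex needs to reach the membrane, read 10.85, 11.25 and 10.98 in ICN2-negative replicates 1 to 3 and 11.10, 10.33 and 11.02 in ICN2-positive replicates 1 to 3. ICN2-positive replicate 2 alone was low. The Rhag difference was -0.21 (95% interval -0.78 to 0.36), 0.032 without that array, and -0.35 without ICN2-positive replicate 1. Icam4 read 10.58, 10.67 and 10.44 in ICN2-negative replicates 1 to 3 and 10.63, 10.42 and 10.47 in ICN2-positive replicates 1 to 3, with overlapping groups. Its difference of -0.05 had an interval of -0.30 to 0.19, which on these arrays does not reach the -1.13 measured for Sptb 1450556_at.

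Kel read 10.90, 11.10 and 10.75 in ICN2-negative replicates 1 to 3 and 10.99, 10.51 and 10.71 in ICN2-positive replicates 1 to 3, with overlapping groups. Its difference was -0.18 (95% interval -0.57 to 0.21). Leaving out ICN2-positive replicate 1 gave -0.31. Leaving out replicate 2 of the ICN2-positive group gave -0.066, and of the ICN2-negative group -0.088, with no call in any of these. Ermap was the steadiest member, with an SD of 0.0029 over the ICN2-negative arrays, which read 13.36, 13.36 and 13.37. In ICN2-positive replicates 1 to 3 it read 13.37, 13.25 and 13.36, a difference of -0.04 (95% interval -0.22 to 0.14).

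Beta-adducin caps actin filaments and recruits spectrin to the junction. Its brightest probe set, 1421975_a_at, read 9.89, 9.56 and 9.78 in ICN2-negative replicates 1 to 3 and 10.42, 9.82 and 10.11 in ICN2-positive replicates 1 to 3. The difference was 0.37 ± 0.17 (SE), the groups overlapped and the adjusted p was 0.262. Without ICN2-positive replicate 1 it was 0.22 (adjusted p = 0.426). All 5 probe sets had higher means in ICN2-positive cells, by 0.37 to 0.60, and they read the same gene on the same arrays, so they do not count as separate support. Probe set 1450442_at had groups apart by 0.021 (difference 0.60, adjusted p = 0.213). ICN2-positive replicate 1 was the highest array there, and without it the difference was 0.34. With array weights 1 of the 5, 1451914_a_at, passed at an adjusted p of 0.0496.

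Counted over the members, 5 of the 20 tested probe sets, of 4 genes, had all ICN2-positive values below all ICN2-negative values, and 1 was separated the other way. Among all tested probe sets 14.0% were separated as lower and 19.7% as higher, 33.7% in all. At least 2-fold lower were 4 member probe sets, of 3 genes, against 3.84% of all tested, and at least 2-fold higher were 0, against 1.90%. Most member genes shared the same low array, but not all. At the brightest probe set of each gene, ICN2-positive replicate 2 was the lowest of the ICN2-positive arrays for 8 of the 10 genes, and replicate 1 for Epb42 and Rhd. ICN2-negative replicate 2 was the highest of its group for 7 genes. Without ICN2-positive replicate 1, 2 member probe sets (the same Epb42 and Sptb probe sets) were called lower and 0 higher. Of all tested probe sets, 1.55% and 1.59% were, 3.14% in all. The median member difference was then -0.16. Without ICN2-positive replicate 2 the median member difference was -0.0051, with 1 probe set (Sptb 1450556_at) called lower and 0 higher. The share of all tested probe sets called in that fit was not counted.

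For 3 genes a dim probe set had a much smaller difference than the brightest one. The dimmer Epb42 probe set, 1417338_at, differed by -0.17 where the brighter differed by -1.94. The dimmer Sptb probe set, 1455226_at, differed by -0.03 against -1.13, and the third Slc4a1 probe set, 1431743_a_at, by 9.1e-04 against -2.67. Each of these 3 had a mean log2 intensity of 5.59 to 5.82, at most 0.52 above the highest 40th percentile of the arrays (5.30), the limit used here as a filter. Tested as a ratio of the brighter to the dimmer probe set in each array, the change differed by -1.77 (95% interval -2.37 to -1.17) for Epb42, by -1.10 (-1.53 to -0.67) for Sptb and by -2.68 (-3.93 to -1.42) for Slc4a1. The adjusted p-values in limma, over 10594 pairs of probe sets in all genes, were 0.0893, 0.115 and 0.150, so 0 of the 10 pairs among the members were called (3 at an unadjusted p under 0.05), where 0.227% of all pairs were. With no detection call for the dimmer probe sets, these ratios largely restate the change of the brighter ones and do not show that the dimmer ones measured the transcript. Array weights called 3 of the 10. The shares of all pairs at the unadjusted limit and with array weights were not counted, so these counts are not read as a result about these genes. Where each probe set lies in its transcript was not determined here. The 2 bright Slc4a1 probe sets differed in their change by 0.06 (-0.13 to 0.25).

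Ratios of genes whose proteins bind each other are given as a description, without p-values. The 8 pairs were chosen after the values were seen, and several set a gene with a large difference against a gene without one. The log2 ratio of the brightest probe sets of Sptb and Add2 deviated from its ICN2-negative mean by -1.88, -1.36 and -1.25 in ICN2-positive replicates 1 to 3, and by -0.17 to 0.21 in the ICN2-negative arrays. That of Slc4a1 to Ank1 deviated by -2.15, -3.23 and -1.80 against -0.58 to 0.55, and that of Sptb to Ank1 by -1.37, -0.69 and -0.47 against -0.11 to 0.11. That of Rhd to Rhag deviated by -0.82, 0.039 and -0.35 against -0.11 to 0.17, with overlapping groups. Groups also overlapped for Slc4a1 to Epb42 (0.50, -1.99 and -0.72 against -0.40 to 0.36). The same held for Rhag to Icam4 (-0.0024, -0.55 and 0.086 against -0.19 to 0.12). Kel to Xk was lower (-0.38, -0.56 and -0.56 against -0.31 to 0.25). Sptb to Dmtn was higher (0.19, 0.40 and 0.93 against -0.060 to 0.070).

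**Figure D3:**
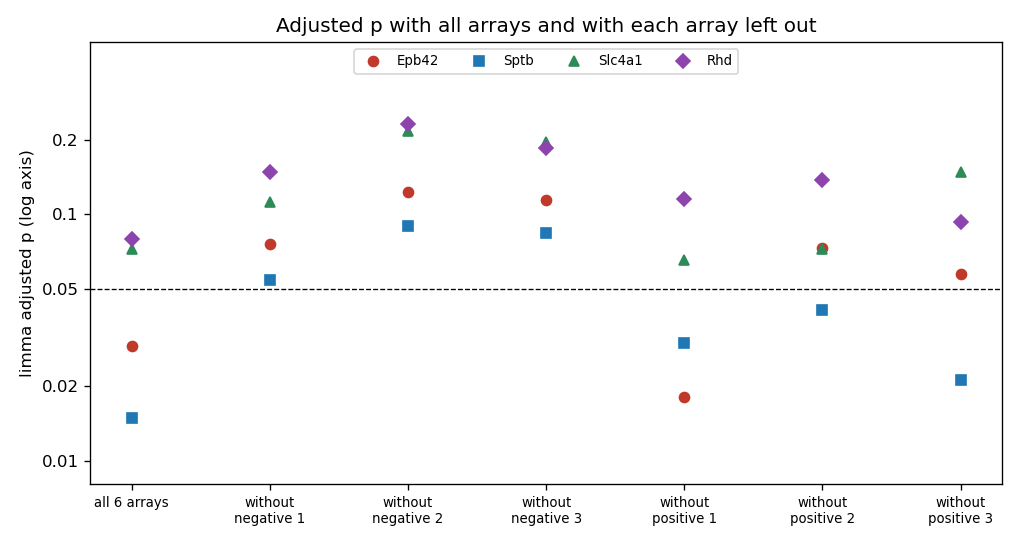
Adjusted p in limma (y axis, log scale) for the brightest probe sets of Epb42, Sptb, Slc4a1 and Rhd with all 6 arrays and with each array left out in turn (x axis); the dashed line is 0.05. With all arrays Epb42 and Sptb lie below the line, without any single ICN2-negative array all 4 genes lie above it, and Slc4a1 and Rhd stay above it throughout.

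The rest of the red cell membrane was measured through 65 tested probe sets of other skeleton and surface genes. Of these, 2 were called lower and 2 higher, against 0.988% and 1.67% of all tested. The median was -0.02 for the skeleton list (31 probe sets, 11 genes) and 0.06 without ICN2-positive replicate 1. For the surface list (34 probe sets, 20 genes) the median was 0.01. Among the skeleton genes, Dmtn, which encodes dematin, an actin-bundling protein of the junctions, fell by 1.63 on the log2 scale (difference -1.63 ± 0.13, adjusted p = 0.00717). It read 9.32, 9.44 and 9.46 in ICN2-negative replicates 1 to 3 and 8.01, 7.72 and 7.59 in ICN2-positive replicates 1 to 3, and its other probe sets differed by -0.32 and -1.03 without passing. Add3, the adducin subunit found in most tissues, rose by 0.88 ± 0.10 at 1 of its 3 tested probe sets (adjusted p = 0.0163). The others, of which 1 is brighter, differed by 0.42 and 0.51 without passing (adjusted p = 0.147 and 0.126). Among the surface genes, Ackr1, the Duffy blood group chemokine receptor, fell from 7.93, 8.42 and 7.74 to 6.43, 6.23 and 5.90 (difference -1.85 ± 0.22, adjusted p = 0.0201). Art4, the Dombrock blood group protein, rose from 8.79, 8.82 and 8.85 to 9.59, 9.62 and 9.57 (difference 0.77 ± 0.07, adjusted p = 0.00935). With 1 array left out, these 4 calls passed in 4 of 6 fits for Dmtn, 3 for Art4, 2 for Add3 and 1 for Ackr1. All 4 were lost without ICN2-negative replicate 2 or 3 (adjusted p = 0.0512 to 0.0933), and without ICN2-negative replicate 1 those of Ackr1 and Add3 (adjusted p = 0.0619 and 0.0549). Add3 and Art4 were also lost without ICN2-positive replicate 3 (0.0737 and 0.0545), and Ackr1 without ICN2-positive replicates 2 or 3 (0.0601 and 0.0728).

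Relatives of the members that serve other cells had a median of -0.34 over 25 tested probe sets. Of these, 1 was called lower and 2 higher, against 0.988% and 1.67% of all tested. Without ICN2-positive replicate 1 the median was -0.24, with 2 lower and 3 higher, against 1.55% and 1.59% of all tested. At 1 probe set per gene, the median deviation from the ICN2-negative mean was -0.39, 0.027 and -0.23 in ICN2-positive replicates 1 to 3. Sptbn1, the spectrin of most tissues, fell at 1 of its 5 tested probe sets (1444089_at, -1.24 ± 0.11, adjusted p in limma = 0.00978). Ank3 (0.62, adjusted p in limma = 0.0312) and Icam2 (0.59, adjusted p in limma = 0.0280) rose. The Ank3 probe set read 5.35, 5.40 and 5.49 in ICN2-negative replicates 1 to 3, close to the highest 40th percentile (5.30). The other Ank3 probe sets did not pass the filter and differed by -0.22 to 0.94. The Ank3 and Icam2 calls were kept only without ICN2-positive replicate 1 among the fits that left out 1 array (adjusted p = 0.0411 and 0.0463), and up to 0.131 and 0.123 otherwise. The Sptbn1 call was lost without ICN2-negative replicate 2 or 3 or ICN2-positive replicate 3 (adjusted p = 0.0521, 0.0556 and 0.0555).

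Erythroid regulators and maturation genes stood beside the members as follows. There were 25 tested probe sets of 12 transcription factor genes, with a list median of 0.16. E2f2, a cell cycle factor of maturing erythroblasts, was called lower at 1455790_at (-1.52 ± 0.20, adjusted p in limma = 0.0280). Its other probe set, 1436434_at, missed the threshold (-1.42, adjusted p in limma = 0.0572). Bcl11a, a repressor of embryonic globin genes, was called higher at 1 of its 7 tested probe sets (0.52 ± 0.07, adjusted p in limma = 0.0314). Without ICN2-positive replicate 1 the list median was 0.10. In that fit 2 probe sets were called lower and 1 higher, against 1.55% and 1.59% of all tested. At 1 probe set per gene, the median deviation from the ICN2-negative mean was 0.086, 0.016 and 0.065 in ICN2-positive replicates 1 to 3. Gata1 differed by 0.08 and Klf1 by 0.16, with overlapping groups. Sox6 was lower with groups apart, but not called, at 1447655_x_at (-1.12), 1427677_a_at (-1.03) and 1434918_at (-0.9996). The adjusted p-values in limma were 0.0513, 0.0640 and 0.0655. Its probe set 1426018_a_at differed by 0.23, with overlapping groups. Of 22 tested maturation probe sets, 2 were called lower, those of Trim10 (-1.60) and Cldn13 (-0.53), against 0.988% of all tested. The maturation list had a median of -0.13 (-0.21 without ICN2-positive replicate 1). The summed linear intensity of the transcription factor list, 1 probe set per gene, was 49498 to 50611 in ICN2-negative and 50203 to 54713 in ICN2-positive cells, and that of the maturation list 79623 to 83423 and 68791 to 76628. With 1 array left out, the E2f2, Bcl11a and Cldn13 calls were lost in all fits but that without ICN2-positive replicate 1 (adjusted p = 0.00845 for E2f2 and 0.0485 for Bcl11a), where Cldn13 was lost too (0.0635). Trim10 was lost without ICN2-negative replicates 2 and 3 (adjusted p = 0.0581 and 0.0556).

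**Figure D4:**
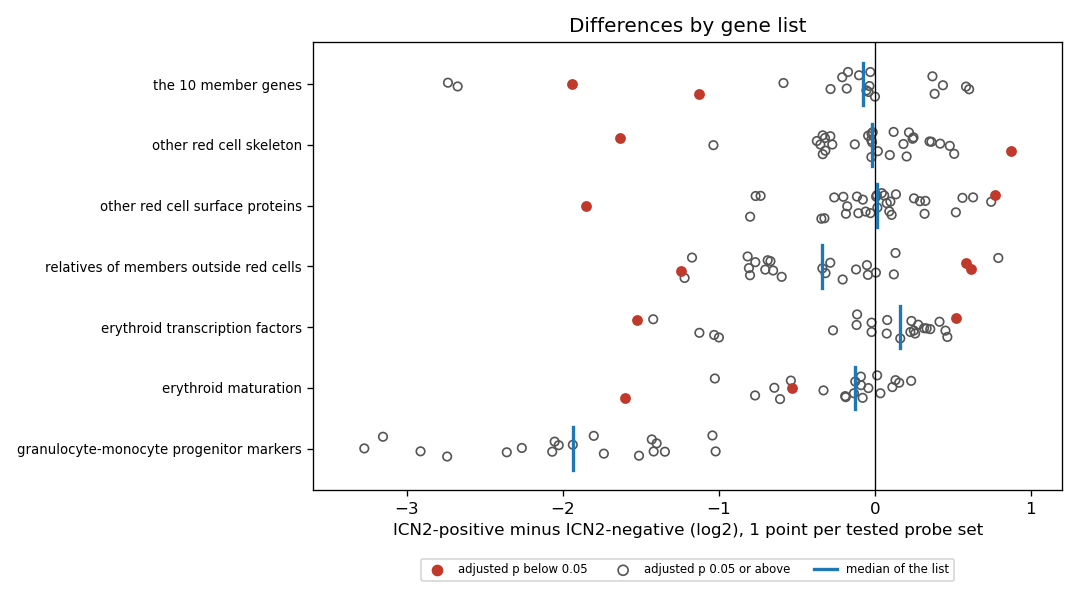
Difference between the genotypes (log2, x axis) for each tested probe set of 7 gene lists (y axis), with filled red points for an adjusted p below 0.05 and a blue bar at the median of each list. The 10 member genes have a median of -0.08 with a tail to -2.74, both other red cell lists centre near 0, and the granulocyte-monocyte progenitor markers centre at -1.94 with no call (-0.88 without ICN2-positive replicate 1).

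Markers of other cell types were read on the same arrays. All 19 tested probe sets of 15 granulocyte-monocyte progenitor genes had lower values in every ICN2-positive array than in any ICN2-negative array, with 0 called in limma (the separation held for 14.0% of all tested), and their summed linear intensity was 112079 to 126382 in ICN2-negative cells against 13347.5, 80431 and 71108 in ICN2-positive replicates 1 to 3. Their median difference was -1.94 with all arrays, and -0.88 without ICN2-positive replicate 1, where 10 of the 19 were called lower. Over all tested probe sets, 0.988% were called lower and 1.67% higher with all arrays, and 1.55% and 1.59% without ICN2-positive replicate 1. Of 11 B cell probe sets 10 had lower means and 1 was called lower (sums 3811 to 14961 against 948 to 2647; 0 lower and 1 higher without ICN2-positive replicate 1), and of 13 T and NK cell probe sets 11 had higher means and 2 were called higher (sums 11828 to 13187 against 14630.5 to 24758). Mast cell and basophil sums were 17914.5 to 21902 against 9358 to 36582 (4 of 15 probe sets called higher, of which 3 passed the filter through the ICN2-positive arrays alone and so had to differ), and megakaryocyte sums 3255 to 10973 against 3075 to 6220. The sum over the 10 members was 26968.5 to 31265 in ICN2-negative cells and 23165, 19434 and 22998.5 in ICN2-positive replicates 1 to 3. ICN2-positive replicate 1 had the lowest granulocyte-monocyte sum of its group, while its member sum was close to that of replicate 3. Ermap alone made up 10559, 9708 and 10508 of the member sums in ICN2-positive replicates 1 to 3. The part of these marker genes in the member differences was not tested.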

How the data were processed

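Each array gave 1 intensity per probe set. The authors' values came from RMA, per the submitters' processing notes, a method that subtracts background, equalizes the arrays' distributions and summarizes probes; its version is unstated in the labels. RNA (5 ng) was amplified before labelling, per the labels' protocols. The deposited intensities were linear, from 5.13 to 24679, and log2 was taken here. Equalized arrays mean that a change in total RNA per cell cannot be seen. Genes were named from the platform annotation, and only for probe sets with 1 symbol (34958). Controls (64) and probe sets not above the 40th percentile of their array on at least 3 of 6 arrays were left out, which left 27424.

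Genotypes were compared with limma 3.58.1 under R 4.3.3, using lmFit and eBayes without covariates on 3 against 3 arrays, with Benjamini-Hochberg adjustment over all tested probe sets and a threshold of 0.05. Errors are standard errors of this fit. The number of arrays limits the precision. Depth does not apply, and detection calls were not used. Tested on 3 simulated data sets of 27424 probe sets with 200 changes, the fit recovered 80.3% of changes of 2 and 49% of changes of 1 (log2), with 5.08% false calls. The simulated noise was independent between probe sets, equally wide in both groups and without an outlying array. These rates may therefore not hold for the real arrays. Named genes were all member probe sets and the called probe sets of 5 other lists. Gata1, Klf1, Sox6, the sort and sex checks (Kit, Itgam, Ms4a1, Cd3e, Xist, Eif2s3y) and the partner ratios were named outside that rule, with values seen. Members and lists were chosen with earlier results of these data known. Alternatives covered filter, normalization, variance model, array weights, probe set choice, replicate number, threshold and each array left out.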

Additional observations from a re-analysis of the deposited data

How the results depend on the processing

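The differences of Epb42 1417337_at (-2.02 to -1.58) and Sptb 1450556_at (-1.21 to -0.96) stayed negative under the alternatives that kept every array and probe set, and of these only the replicate block ended their calls. Averaged over each gene's probe sets they were -1.06 (adjusted p = 0.0370) and -0.58 (0.0539). The number of member probe sets called lower was 5 with a variance that follows intensity and with a threshold of 0.1. It was 4 with array weights (and 1 higher) and 0 with the replicate block (adjusted p in limma = 0.0637 for Epb42 and 0.0566 for Sptb). With the mean of probe sets per gene, 1 gene was called lower. The shares of all tested probe sets called under these settings were not counted. The larger counts, here and for the other red cell membrane probe sets, are therefore not read as a result about these genes. With 1 array left out, 0 to 2 member probe sets were called lower and 0 higher, and their median difference was -0.16 to -0.0051. Of the other red cell membrane probe sets, those called higher numbered 5 with the variance trend and with the threshold of 0.1, 10 with array weights (5 lower), 1 with 1 probe set per gene, 0 with the replicate block and 0 to 2 with 1 array left out, where 0 to 2 were lower. Member probe set pairs that differed in their change numbered 3 with array weights, 1 at the threshold of 0.1 and 0 with any single array left out. The shares of all pairs under these settings were not counted. Array weights gave ICN2-positive replicate 3 a weight of 4.03 and replicate 1 one of 0.29.

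Signs turned only for probe sets without a call: Slc4a1 1431743_a_at was -0.0068 with cyclic loess and -0.065 to 0.066 with 1 array left out, and with array weights Epb42 1417338_at was 0.035 and Ank1 1425677_a_at 0.042. With 1 array left out the last ranged from -0.15 to 0.15, Sptb 1455226_at from -0.16 to 0.12, Rhag from -0.35 to 0.032 and Icam4 from -0.12 to 1.4e-04. Same-numbered arrays correlated at 0.18, 0.10 and 0.09 in their deviations from group means. ICN2-negative replicates 1 and 3 correlated best with the ICN2-positive array of their own number, and replicate 2 with ICN2-positive replicate 3 (0.13). With 3 arrays per group these values cannot settle whether the numbers pair the samples. The main fit used no pairing, and the replicate block, which did, called 0 member probe sets.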
